A study of Mus musculus with 9 samples.

Results

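ATF4 and the unfolded protein response were followed through 10 genes (Atf4, Atf5, Ddit3, Ddit4, Trib3, Chac1, Asns, Nupr1, Hspa5 and Xbp1) out of 19937 genes named on the array. Each of the 10 was named by its symbol and had exactly 1 array row that carried that symbol alone, so no choice between rows was needed. The arrays followed mouse fibroblasts through 3 stages of reprogramming to induced pluripotent stem (iPS) cells, with 3 arrays per stage: fibroblasts at passage 4, fibroblasts of that passage after 3 days of doxycycline (TSKM-3D, also called day 3 here), and 1 iPS line at passages 10 to 15. All 3 groups carried the OG2-GFP/Rosa26-M2rtTA background. The fibroblasts and TSKM-3D cells came from mice made with iPS cells in which doxycycline switches on Tet1, Sox2, Klf4 and c-Myc (TSKM), and the iPS line was made in that secondary system. For the iPS line the labels do not say whether doxycycline was present at collection.

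Cells meet several kinds of stress with a shared answer, the integrated stress response. Kinases that sense unfolded protein in the endoplasmic reticulum (ER), amino acid shortage, double-stranded RNA or haem shortage phosphorylate the translation factor eIF2, general protein synthesis drops, and translation of ATF4 rises. ATF4 is a basic leucine zipper transcription factor that switches on genes of amino acid supply, redox balance and, under lasting stress, cell death. The unfolded protein response of the ER adds the ATF6 branch, which raises chaperones such as BiP, and the IRE1 branch, which splices Xbp1 mRNA into the form that encodes an active factor. ATF4 is controlled largely at translation and XBP1 by splicing, so array values, which measure mRNA level, do not report the activity of either. Protein, eIF2 phosphorylation and splicing were not measured.

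The recognition sequences of both arms lie in some of these promoters, and the windows of the members that hold a match are shown. Sequences come from RefSeq (GRCm38.p6) and cover the 250 bases before the annotated gene start, 5′ to 3′ on the gene's strand. Capitals mark matches on either strand to TGATGNAA, the core of the element bound by C/EBP and ATF factors, or to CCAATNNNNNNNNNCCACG, the ER stress response element bound by ATF6 with NF-Y. No match to either motif overlapped another.
Chac1 promoter (chr2:119350992-119351241, plus strand): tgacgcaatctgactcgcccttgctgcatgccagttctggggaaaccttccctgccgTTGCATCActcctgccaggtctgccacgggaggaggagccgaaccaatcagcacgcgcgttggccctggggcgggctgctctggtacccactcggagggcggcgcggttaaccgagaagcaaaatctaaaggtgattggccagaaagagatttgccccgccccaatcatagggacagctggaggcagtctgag
Asns promoter (chr6:7693210-7693459, minus strand): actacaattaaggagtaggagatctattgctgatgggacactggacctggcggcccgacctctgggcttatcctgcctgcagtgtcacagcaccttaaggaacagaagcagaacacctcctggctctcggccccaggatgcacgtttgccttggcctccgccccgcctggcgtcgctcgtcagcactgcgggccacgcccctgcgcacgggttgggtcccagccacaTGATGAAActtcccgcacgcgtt
Nupr1 promoter (chr7:126625471-126625720, minus strand): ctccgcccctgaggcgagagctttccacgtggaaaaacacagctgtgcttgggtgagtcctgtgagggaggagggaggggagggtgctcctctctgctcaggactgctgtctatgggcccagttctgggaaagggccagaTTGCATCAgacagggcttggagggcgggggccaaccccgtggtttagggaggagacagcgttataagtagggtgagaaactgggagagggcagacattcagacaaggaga
Hspa5 promoter (chr2:34771840-34772089, plus strand): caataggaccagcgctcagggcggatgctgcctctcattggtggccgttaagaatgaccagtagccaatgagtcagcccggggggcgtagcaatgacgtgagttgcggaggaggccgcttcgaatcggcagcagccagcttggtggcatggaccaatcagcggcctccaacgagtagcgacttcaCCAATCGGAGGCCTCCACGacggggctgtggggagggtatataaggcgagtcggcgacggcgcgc
The match in Chac1 begins 193 bases and that in Nupr1 110 bases before the start, both on the opposite strand, so the capitals show the reverse complement. The match in Asns begins 23 bases before the start. The ER stress element of Hspa5 begins 65 bases before it. Of the 10 members, 3 held the first motif and 1 the second. Among 32851 promoter windows of the same length, 3.45% held the first and 0.113% the second. A match describes the letters only. The other 6 members (Atf4, Atf5, Ddit3, Ddit4, Trib3 and Xbp1) had neither motif in this window, which says nothing about sites elsewhere.

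Values are log2 expression as deposited, so a difference of 1 is 2-fold. Calls required both a difference of at least 2-fold and an adjusted p under 0.05 in limma (Benjamini-Hochberg over all 19937 genes). Arrays of a group lay so close that 0 genes of at least 2-fold missed that p in any of the 3 comparisons, so the fold decided every call. "Rose" and "fell" are used of called genes only. Readings of 1 gene are compared between arrays, never with readings of another gene. The lowest reading of any member on any array was 6.60, above the array medians of 6.01 to 6.23. Thy1, a fibroblast surface marker, read 9.59 ± 0.11 at day 3 and 7.89 ± 0.09 in iPS cells, against 12.00 ± 0.04 in fibroblasts (SD, n = 3 each). Of 12 fibroblast markers 7 fell and 1 rose (Twist1, by 1.24) at day 3 against fibroblasts. Nanog, a pluripotency factor, read 12.38 ± 0.06 in iPS cells, against 5.65 ± 0.14 at day 3 (SD, n = 3 each). Of 12 pluripotency markers 2 rose and 0 fell at day 3 against fibroblasts: Pou5f1 by 1.85 and Sox2, 1 of the induced factors, by 1.39. All 12 rose in iPS cells against day 3. Fibroblast replicate 3 is labelled as induced by its cell type, but as uninduced by its title, source name and passage, and stayed with the fibroblasts here. Without it every member kept its call in all 3 comparisons, and no difference moved by more than 0.0929. Separate cultures are not documented for the replicates, and the spread behind every p-value may therefore be technical.

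The 10 genes did not follow 1 course. Atf4 and Hspa5 stayed nearly level in all 3 groups. Chac1, Trib3 and Asns were lowest at day 3 and higher again in iPS cells. Ddit4, Nupr1, Atf5 and Xbp1 were highest in fibroblasts, lower at day 3 and lower still in iPS cells. Ddit3 was low at day 3 and in iPS cells, whose arrays overlapped. At day 3 against fibroblasts 5 of 10 members fell (Chac1, Xbp1, Ddit3, Ddit4 and Trib3) and 0 rose, where 10.8% of all genes were called, 3.25% higher and 7.58% lower. On the adjusted p alone 8 members were lower and 0 higher, where 44.6% of all genes passed, 25.3% lower and 19.2% higher. The arrays of the 2 groups did not overlap for 9 of 10 members and for 53.1% of all genes. The median difference was -0.997 over the members and 0.05 over all genes. Between iPS cells and day 3, 0 members were called by limma, where 15.1% of all genes were (6.48% higher and 8.57% lower). An unadjusted p under 0.05 was reached by 9 members and by 10018 of all 19937 genes. On the adjusted p alone 3 members were higher and 5 lower, where 45.6% of all genes passed, 22.3% higher and 23.2% lower. No member differed by 2-fold there, so limma's test against 2-fold (treat) could call only 0. The arrays did not overlap for 8 members and for 49.5% of all genes. Set against fibroblasts, iPS cells had 6 members that fell (Xbp1, Ddit4, Nupr1, Chac1, Ddit3 and Atf5) and 0 that rose, where 21.5% of all genes were called, 7.63% higher and 13.8% lower. On the adjusted p alone 6 members were lower and 1 higher, where 54.6% of all genes passed, 29.1% lower and 25.5% higher. The arrays did not overlap for 9 members and for 65.0% of all genes. The median differences were -1.09 over the members and 0.05 over all genes.

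**Figure D1:**
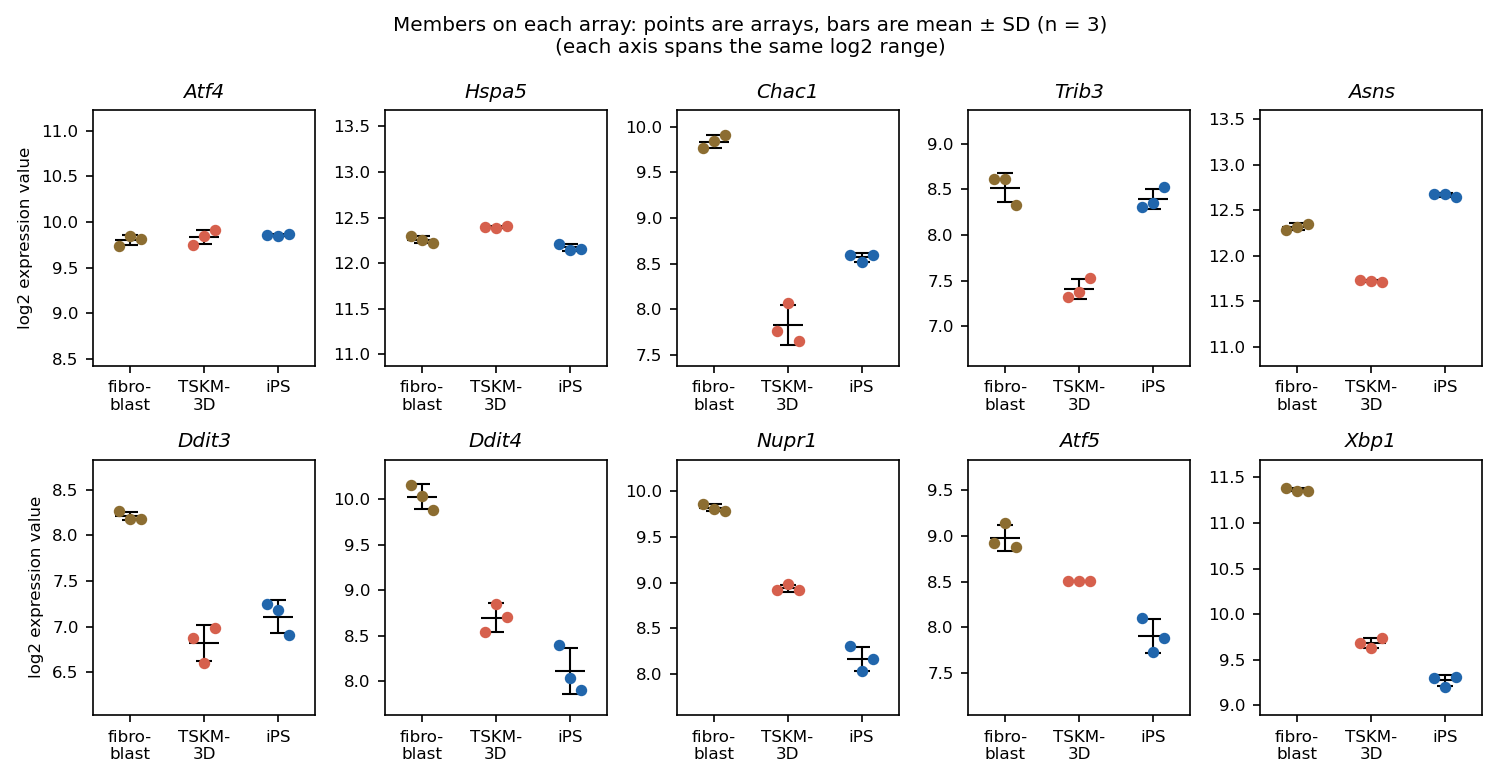
Log2 expression value of each of the 10 genes on each array (vertical axis; every axis spans the same log2 range) in fibroblasts, TSKM-3D and iPS cells. Points are arrays and bars the mean ± SD (n = 3); Atf4 and Hspa5 stay nearly level, whereas Chac1, Trib3 and Asns are lowest at day 3 and Xbp1, Ddit4, Nupr1 and Atf5 step down at each stage.

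Several conditions changed with the stage. Doxycycline came together with a switch to embryonic stem cell medium, which held 15% serum, 1000 U/ml LIF, 1 mM glutamine, 0.1 mM mercaptoethanol and 1% nonessential amino acid stock. The fibroblasts had grown in a feeder medium whose composition is not given in the sources used here, so the effects of medium and of the induced factors cannot be told apart at day 3. The iPS cells alone grew on feeder fibroblasts, removed before collection by plating for 0.5 h. The mean log2 level of 12 fibroblast markers was 7.82 to 7.94 on iPS arrays, 9.17 to 9.23 on TSKM-3D arrays and 10.69 to 10.78 on fibroblast arrays. In iPS cells 7 of them fell and 1 rose (Dcn, by 1.45) against day 3, and 10 fell and 0 rose against fibroblasts. Of 12 macrophage markers 5 fell and 0 rose at day 3 against fibroblasts, and their mean log2 level was 5.53 to 5.73 on TSKM-3D arrays, 5.92 to 5.96 on iPS arrays and 6.78 to 6.92 on fibroblast arrays. In iPS cells against fibroblasts 6 of these markers fell and 1 rose (Cd68, by 2.10). The part of either cell type in the results was not tested, and array readings have no true zero by which a marker could be called absent. In bulk samples fewer cells of a type and less RNA per cell cannot be told apart.

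Among the transcription factors, Atf4 itself differed little between the groups, by at most 0.06, and no difference passed the adjusted p. It read 9.75, 9.85 and 9.91 on the TSKM-3D arrays, against 9.74, 9.85 and 9.81 on the fibroblast arrays. The iPS arrays read 9.86, 9.85 and 9.87. The TSKM-3D readings overlapped those of both other groups. The lowest iPS reading, 9.851, lay just above the highest fibroblast reading, 9.846. The log2 difference was 0.04 ± 0.07 at day 3 against fibroblasts (SE; 95% interval -0.12 to 0.20; limma, Benjamini-Hochberg adjusted p = 0.712) and 0.06 ± 0.07 in iPS cells against fibroblasts (-0.10 to 0.22; adjusted p = 0.535). The sign of all 3 Atf4 differences turned when array medians were set equal.

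Ddit3 encodes CHOP, a C/EBP-family factor that ATF4 induces and that promotes death under unresolved ER stress. It read 6.87, 6.60 and 6.98 at day 3, against 8.26, 8.19 and 8.18 in fibroblasts, and 7.24, 7.18 and 6.90 in iPS cells. Every fibroblast array lay above all 6 others, while TSKM-3D and iPS arrays overlapped. Ddit3 fell 2.63-fold at day 3 (log2 difference -1.39 ± 0.11 SE; limma, Benjamini-Hochberg adjusted p = 1.33e-06). In iPS cells it stood 0.29 ± 0.11 from its day-3 level (adjusted p = 0.0598) and remained 2.15-fold below fibroblasts (adjusted p = 4.96e-06).

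Atf5 encodes a factor related to ATF4 that is likewise translated under stress and acts in the mitochondrial unfolded protein response. It read 8.51, 8.50 and 8.51 at day 3, against 8.92, 9.14 and 8.88 in fibroblasts, and 8.10, 7.73 and 7.89 in iPS cells. The 3 groups did not overlap and stepped down with stage. The day-3 difference of -0.47 ± 0.10 from fibroblasts lay inside 2-fold (limma, Benjamini-Hochberg adjusted p = 0.00274). In iPS cells Atf5 fell by 1.07 ± 0.10 from the fibroblast level (adjusted p = 2.54e-06). That call rested on readings just past 2-fold: the difference was -0.994 without fibroblast replicate 2, -0.987 without iPS replicate 2 and -0.911 after quantile normalization. Nupr1, a small stress-induced nuclear protein, had the same order. It read 8.92, 8.98 and 8.92 at day 3, against 9.86, 9.81 and 9.79 in fibroblasts, and 8.30, 8.03 and 8.16 in iPS cells, again with no overlap between groups. Its day-3 difference was -0.88 ± 0.08 (adjusted p = 3.69e-06), the iPS difference from day 3 was -0.77 ± 0.08 (adjusted p = 8.33e-06), and in iPS cells it fell 3.15-fold below fibroblasts (-1.65 ± 0.08; adjusted p = 7.58e-09).

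Chac1, Trib3 and Asns, commonly used readouts of ATF4 activity, shared a low point at day 3. Chac1 encodes an enzyme that breaks down glutathione. It read 7.76, 8.07 and 7.66 at day 3, against 9.77, 9.84 and 9.91 in fibroblasts, and 8.60, 8.51 and 8.59 in iPS cells. No array of any group overlapped another group. Chac1 fell 4.03-fold at day 3, the largest of the 10 differences in that comparison (-2.01 ± 0.10; limma, Benjamini-Hochberg adjusted p = 3.36e-08). In iPS cells it was 0.74 ± 0.10 above day 3 (adjusted p = 7.96e-05), inside 2-fold, and 2.41-fold below fibroblasts (adjusted p = 5.55e-07).

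Trib3 encodes a pseudokinase that binds ATF4 and damps its output. It read 7.32, 7.37 and 7.53 at day 3, against 8.62, 8.61 and 8.33 in fibroblasts, and 8.31, 8.35 and 8.52 in iPS cells. Only the TSKM-3D arrays stood apart, while iPS and fibroblast arrays overlapped. Trib3 fell 2.16-fold at day 3 (-1.11 ± 0.10; limma, Benjamini-Hochberg adjusted p = 3.15e-06), a call lost after quantile normalization (-0.974). In iPS cells it was 0.99 ± 0.10 above day 3 (adjusted p = 6.47e-06), just short of 2-fold, and past it without TSKM-3D replicate 3 (1.05), without iPS replicate 1 or 2 (1.03 and 1.01) or after quantile normalization (1.03). Against fibroblasts the iPS difference was -0.13 ± 0.10 (95% interval -0.35 to 0.10; adjusted p = 0.331), and its sign turned after quantile normalization (0.05).

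Asns encodes asparagine synthetase. It read 11.73, 11.72 and 11.71 at day 3, against 12.28, 12.32 and 12.35 in fibroblasts, and 12.68, 12.67 and 12.65 in iPS cells. The groups did not overlap, and iPS arrays were the highest. The differences were -0.60 ± 0.07 at day 3 against fibroblasts (limma, Benjamini-Hochberg adjusted p = 1.58e-05), 0.95 ± 0.07 in iPS cells against day 3 (adjusted p = 2.43e-07) and 0.35 ± 0.07 in iPS cells against fibroblasts (adjusted p = 0.000766), each inside 2-fold. Of the 10 genes, Asns alone passed the adjusted p as higher in iPS cells than in fibroblasts. The promoters of Asns, Chac1 and Nupr1 hold the C/EBP-ATF core shown above.

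Ddit4 encodes REDD1, an inhibitor of mTORC1 that ATF4, p53, hypoxia and glucocorticoids induce. It read 8.54, 8.85 and 8.71 at day 3, against 10.16, 10.04 and 9.89 in fibroblasts, and 8.40, 8.04 and 7.91 in iPS cells. The 3 groups stepped down without overlap. Ddit4 fell 2.51-fold at day 3 (-1.33 ± 0.13; limma, Benjamini-Hochberg adjusted p = 6.05e-06) and 3.77-fold in iPS cells against fibroblasts (-1.91 ± 0.13; adjusted p = 1.25e-07).

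The ER arm was split between its chaperone and its splicing-controlled factor. Hspa5 encodes BiP, the main ER chaperone. It read 12.40, 12.39 and 12.41 at day 3, against 12.30, 12.25 and 12.22 in fibroblasts, and 12.22, 12.15 and 12.16 in iPS cells. The TSKM-3D arrays were highest, by a small margin: 0.14 ± 0.07 above fibroblasts (95% interval -0.01 to 0.29; limma, Benjamini-Hochberg adjusted p = 0.126). In iPS cells Hspa5 was 0.22 ± 0.07 below day 3 (adjusted p = 0.018) and differed by -0.08 ± 0.07 from fibroblasts (-0.23 to 0.06; adjusted p = 0.325).

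Xbp1 read 9.68, 9.63 and 9.74 at day 3, against 11.38, 11.36 and 11.35 in fibroblasts, and 9.30, 9.21 and 9.32 in iPS cells. No group overlapped another, and the gap to fibroblasts was many times the spread within any group. Xbp1 fell 3.20-fold at day 3 (-1.68 ± 0.07; limma, Benjamini-Hochberg adjusted p = 9.06e-09) and 4.25-fold in iPS cells against fibroblasts (-2.09 ± 0.07; adjusted p = 3.85e-10), the largest of the 10 differences in that comparison. The iPS level was a further 0.41 ± 0.07 below day 3 (adjusted p = 0.000448). The row does not separate spliced from unspliced Xbp1 mRNA.

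**Figure D2:**
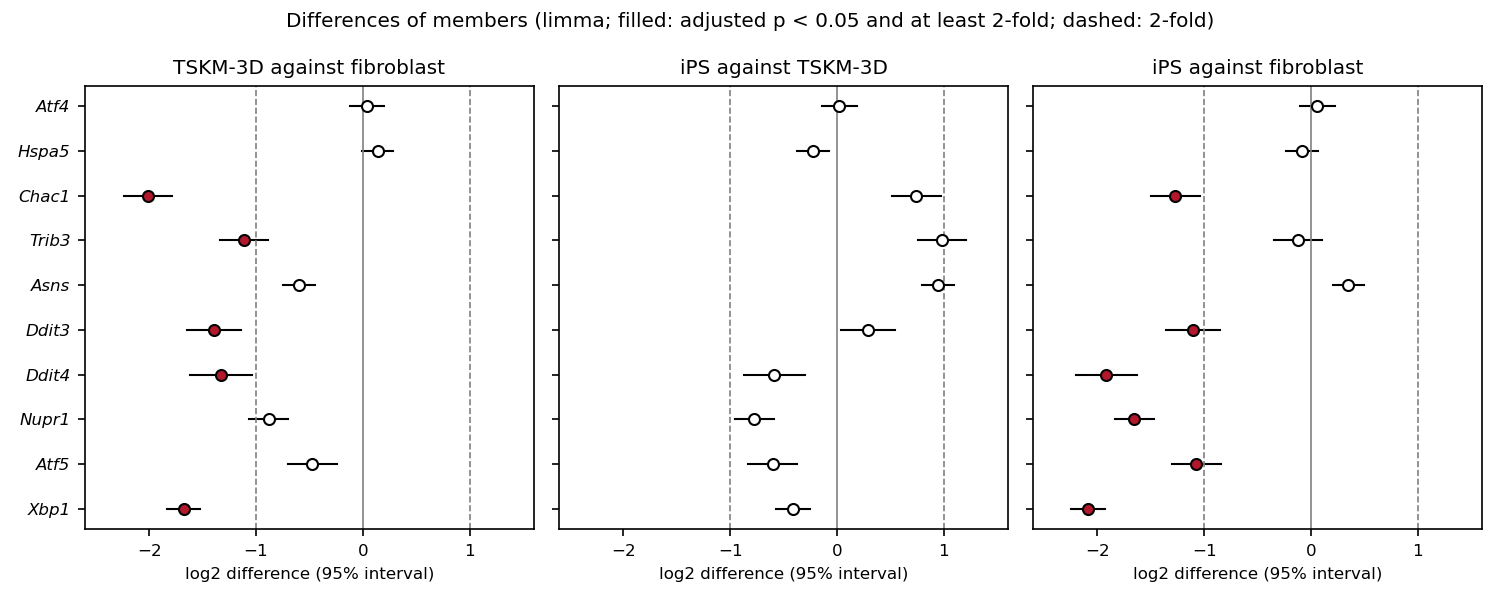
Log2 difference of each gene (horizontal axis) with its 95% interval in the 3 comparisons, limma over 9 arrays; filled points passed an adjusted p of 0.05 and 2-fold (dashed lines). At day 3 the 5 filled points lie left of -1, none is filled for iPS against TSKM-3D, and 6 are filled for iPS against fibroblasts.

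The members' courses were set against those of all other genes. Likeness was the root-mean-square distance between 9-array profiles, each centred on its own mean, for the 7 members whose group means spanned at least 1 log2 unit. The closest genes were Gatc, Adcy7 and Cacna1g to Xbp1 (distances 0.084 to 0.100 log2 units), Ext1, Cops9 and Mrps6 to Nupr1 (0.062 to 0.071), and Pacc1, Wsb2 and Pex19 to Atf5 (0.063 to 0.077). Those closest to Trib3 were Nudt4, Fam221a and Asxl2 (0.106 to 0.118), and to Chac1 Dhrs3, C3ar1 and Naaa (0.137 to 0.142). Tpmt, Mpc1 and Tfpi2 were closest to Ddit3 (0.078 to 0.099), and Plxnd1, Arpc1b and Selenom to Ddit4 (0.095 to 0.112). No member was among the 3 closest genes of another member. Among the members themselves Ddit4 lay closest to Xbp1 (0.214) and Nupr1 (0.217), Atf5 to Nupr1 (0.255) and Trib3 to Asns (0.264). The 2 level genes Atf4 and Hspa5 lay 0.116 apart.

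Of the stress sensors, eIF2 regulators and partner factors of the pathway, 23 were measured. At day 3, 2 rose and 0 fell, where 3.25% of all genes were higher and 7.58% lower. The count was 1 higher and 0 lower without TSKM-3D replicate 1, and also with array medians set equal. Atf3, a stress-induced ATF-family factor that ATF4 can switch on, rose by 2.66 ± 0.10 (9.79 ± 0.19 at day 3 and 7.14 ± 0.11 in fibroblasts; SD, n = 3 each; limma, Benjamini-Hochberg adjusted p = 3.82e-09), opposite to Ddit3, Trib3 and Chac1. Eif2b5, a subunit of the eIF2B exchange factor, rose by 1.02 ± 0.07. The eIF2 kinase genes Eif2ak3 (PERK), Eif2ak4 (GCN2) and Eif2ak2 differed by -0.12, -0.04 and -0.23 at day 3, none past the adjusted p. Another eIF2 kinase gene, Eif2ak1, differed by -0.77 (limma, Benjamini-Hochberg adjusted p = 0.000157). Ern1, which encodes IRE1, differed by -0.94 (adjusted p = 3.79e-06). Both passed the adjusted p, as 44.6% of all genes did, but lay inside 2-fold and were not called. From day 3 to iPS cells, Eif2b5 and Eif2b4 rose (1.25 and 1.07), while Cebpb, Atf3 and Dnajc3, which encodes an inhibitor of PERK, fell (-1.26, -1.20 and -1.12), where 6.48% of all genes were higher and 8.57% lower. Relative to fibroblasts, 2 of 23 rose in iPS cells, Eif2b5 by 2.27 and Atf3 by 1.46, and 0 fell, where 7.63% of all genes were higher and 13.8% lower. With array medians set equal that count was 2 higher and 4 lower. The list medians were -0.04 for day 3 against fibroblasts, -0.13 for iPS cells against day 3 and -0.18 for iPS cells against fibroblasts, and medians and counts given as 3 values below keep that order.

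Amino acid supply is the best known output of ATF4. Of 22 measured genes of amino acid synthesis and transport 8 fell and 1 rose at day 3 against fibroblasts, where 7.58% of all genes were lower and 3.25% higher, with a list median of -0.78 against 0.05 over all genes. The largest falls were in Aldh1l2, a mitochondrial folate enzyme, at -2.63 ± 0.11 (limma, Benjamini-Hochberg adjusted p = 7.93e-09), the glycine transporter gene Slc6a9 at -2.62 ± 0.09, the cationic amino acid transporter gene Slc7a3 at -1.95 ± 0.13 and the cystine transporter gene Slc7a11 at -1.66 ± 0.11. The gene that rose was Cbs, the first enzyme of the route from homocysteine to cysteine, at 1.12 ± 0.10. The serine synthesis genes Phgdh and Psat1 differed by 0.11 and -0.10. A second, dimmer row of the transporter gene Slc38a1 differed by 1.10, where the row used here gave -0.54. Of the 22, 4 rose and 2 fell in iPS cells against day 3, where 6.48% of all genes were higher and 8.57% lower. The list median in that comparison was 0.20, against -0.01 over all genes. Slc7a3 rose by 4.30 ± 0.13, from a dim day-3 reading of 6.18 ± 0.31, and Cth, the second enzyme of the cysteine route, by 3.32 ± 0.10. Cbs rose by 1.29 ± 0.10 and Got1, an aspartate aminotransferase, by 1.09 ± 0.07, while Aldh18a1, of proline synthesis, fell by 1.35 ± 0.08 and Aldh1l2 differed by -1.08 ± 0.11, also called. Over the whole course, 3 were higher and 7 lower in iPS cells than in fibroblasts, where 7.63% of all genes were higher and 13.8% lower. The differences were led by Cbs at 2.42, Slc7a3 at 2.35, Slc6a9 at -3.39 and Aldh1l2 at -3.71, and the list median was -0.49. Cbs read the same on all 3 TSKM-3D arrays, which may make its p-values too low.

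**Figure D3:**
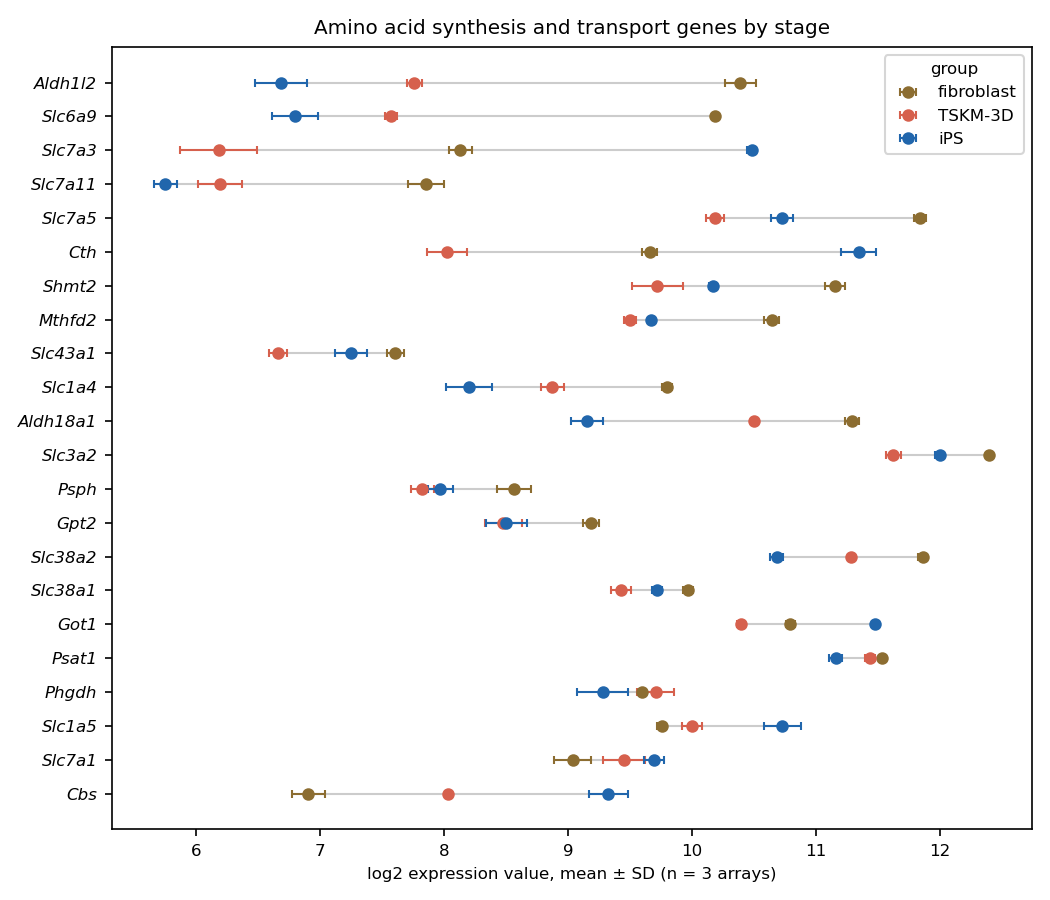
Log2 expression value (horizontal axis) of the 22 amino acid synthesis and transport genes, ordered by their day-3 difference, as mean ± SD of 3 arrays in fibroblasts, TSKM-3D and iPS cells. Slc7a3 and Cth are lowest at day 3 and highest in iPS cells, whereas Aldh1l2 and Slc6a9 are highest in fibroblasts.

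Cytosolic tRNA synthetases, many of them also ATF4 targets, held no called gene. Of 18 measured genes 0 were called by limma in any comparison on the values as deposited, with 12, 10 and 14 at an unadjusted p under 0.05 and list medians of 0.12, 0.06 and 0.18. Nor was any gene called among 10 chaperones and proteases of the mitochondrial unfolded protein response, in which ATF5 acts. Limma called 0 of them, with 9, 5 and 9 at an unadjusted p under 0.05, and their medians were 0.42, 0.14 and 0.51. In the same comparisons 10143, 10018 and 11642 of all 19937 genes reached that p. No gene of either list reached 2-fold on the rows and values used here, so limma's test against 2-fold could call only 0. For iPS cells against fibroblasts, 1 gene of each list was called higher after quantile normalization, and 1 mitochondrial gene without fibroblast replicate 1. A second row of the synthetase gene Iars differed by -1.03 in that comparison, where the row used here gave -0.02. A second row of Hspd1, a mitochondrial chaperone gene, differed by -1.05 in iPS cells against day 3, where the row used here gave -0.22. On the adjusted p alone, 8 of the 10 mitochondrial genes were higher and 1 lower at day 3. Of all genes 44.6% passed there, 19.2% higher and 25.3% lower. In iPS cells against fibroblasts 7 of the 10 were higher and 0 lower, where 25.5% of all genes were higher and 29.1% lower.

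Of 18 other genes reported as ATF4 targets, several of which also answer hypoxia or p53, 5 fell and 1 rose at day 3, where 7.58% of all genes were lower and 3.25% higher. After quantile normalization 2 fell and 1 rose. The stress-responsive gene Ndrg1 changed by -2.55 ± 0.11 and Jdp2, a partner of AP-1 factors, by -1.23 ± 0.10, and Tnfrsf10b, a death receptor, by -1.07 ± 0.08. Pmaip1, which encodes the death-promoting protein NOXA and is also a p53 target, rose by 2.53 ± 0.16 (limma, Benjamini-Hochberg adjusted p = 1.65e-07). Ndrg1 rose in iPS cells (8.87 ± 0.09) against day 3 (7.47 ± 0.20; SD, n = 3 each), and Herpud1, an ER-degradation adaptor, fell there, at -1.01 ± 0.11, where 6.48% of all genes were higher and 8.57% lower. That count of 1 higher and 1 lower was 1 higher and 3 lower without iPS replicate 1, and 1 higher and 4 lower with array medians set equal. Compared with fibroblasts, 7 were lower and 1 higher in iPS cells, where 13.8% of all genes were lower and 7.63% higher, with Jdp2 at -2.17, Tnfrsf10b at -2.03, Herpud1 at -1.88 and Pmaip1 at 2.25. The list medians were -0.50, -0.14 and -0.59. Herpud1 read the same on all 3 TSKM-3D arrays.

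Beyond Hspa5, ER chaperones and folding enzymes stayed mostly uncalled. Of 21 measured, only Dnajb9, a BiP cofactor and a known XBP1 target, was called at day 3, at -1.41 ± 0.11 (8.13 ± 0.24 at day 3 and 9.54 ± 0.07 in fibroblasts; SD, n = 3 each; limma, Benjamini-Hochberg adjusted p = 1.02e-06), where 7.58% of all genes were lower and 3.25% higher. After quantile normalization 2 of the 21 were called higher and 1 lower. Txndc5, a disulphide isomerase, and Sil1, a BiP exchange factor, each differed by -1.22 in iPS cells against day 3, and both were called, where 8.57% of all genes were lower. Against fibroblasts the iPS differences were -2.33 ± 0.11 for Dnajb9 and -1.11 ± 0.09 for Txndc11, and the disulphide isomerase gene Pdia6 rose by 1.02 ± 0.08, where 13.8% of all genes were lower and 7.63% higher. Medians were -0.06, -0.16 and -0.25. The ER degradation and export list, which holds known XBP1 targets, had more calls. Whether Xbp1 had a part in the differences of either list was not tested. Of its 20 measured genes 3 fell and 0 rose at day 3, where 7.58% of all genes were lower. Another 3 calls, all lower, were made in iPS cells against day 3, where 8.57% of all genes were lower, and 9 fell and 0 rose in iPS cells against fibroblasts, where 13.8% were lower. The 3 at day 3 were Derl1, a component of the ER degradation machinery, at -1.67 ± 0.08, Wfs1, an ER membrane protein gene, at -1.49 ± 0.08 and Ufm1, a ubiquitin-like modifier gene, at -1.01 ± 0.08 (a second, dimmer Ufm1 row gave 0.21). In iPS cells against day 3 they were Os9, Selenos and Sec24d, at -1.32, -1.27 and -1.18. Against fibroblasts the largest falls in iPS cells were in the coat protein gene Sec24d at -1.80 ± 0.07, the mannose-trimming gene Edem1 at -1.63 ± 0.08, Derl1 at -1.57 ± 0.08 and Selenos at -1.47 ± 0.08 (adjusted p at most 2.72e-08). The list medians were -0.51, -0.34 and -0.89.

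**Figure D4:**
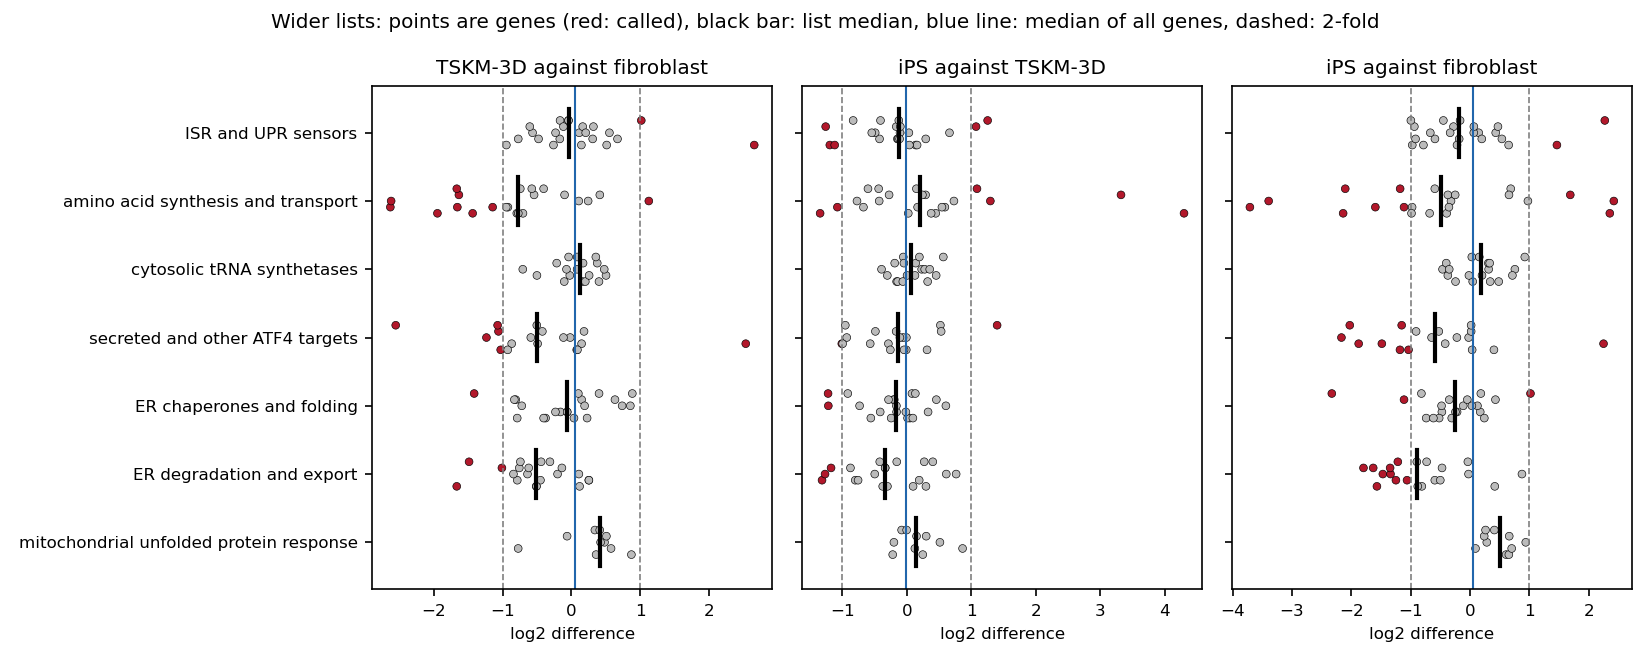
Log2 difference (horizontal axis) of every measured gene of the 7 wider lists in the 3 comparisons; red points were called, black bars are list medians, the blue line is the median of all genes and dashed lines mark 2-fold. The medians of the amino acid and ER degradation lists lie furthest left at day 3, those of the ER degradation and other ATF4 target lists furthest left in iPS cells against fibroblasts, and tRNA synthetases and mitochondrial chaperones hold no called gene.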

How the data were processed

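Total RNA of each of 9 samples was biotin-labelled with an Affymetrix whole-transcript kit, per the labels' protocols, and read on 1 array. The authors deposited log2 values for 34760 rows, with background correction and scaling not given in the sources used here, and no further scaling was applied. GEO's platform annotation gave 1 symbol to 21640 rows, several to 1321 and none here to 11799. Where a gene had several rows the brightest over 9 arrays stood for it, leaving 19937 genes.

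The 3 groups, taken from sample titles, were fitted together in limma 3.58.1 (R 4.3.3; lmFit, contrasts, eBayes) without covariates. The fit was checked on simulated data. No set test was run: lists are given as counts and medians beside those of all genes. List symbols not found were matched through synonyms of the GRCm38.p6 gene table, and 132 of 140 listed genes were measured.

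Members and lists were chosen with earlier results of these data known. The text names all members, up to 4 called list genes per comparison with the largest non-overlapping difference, every called gene of a shorter count, and the closest profiles. Eif2ak1, Eif2ak2, Eif2ak3, Eif2ak4, Eif2b4, Ern1, Phgdh, Psat1, Slc38a1, Got1, Iars and Hspd1 were added after their values were seen. So were Cbs at day 3 and Aldh1l2 in iPS cells against day 3. Alternatives covered scaling, rows per gene, dim genes, variance model, call rule, the replicate block, the conflicting label and leaving out each array. The number of arrays, 3 per group, limits precision.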

Additional observations from a re-analysis of the deposited data

How the results depend on the processing

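Of 570 recomputed differences of the 10 genes (30 under each of 19 alternatives), 532 kept both direction and call, 16 lost the call, 16 gained it and 6 changed sign. Many of the 532 could not move, so their number does not measure stability. Averaging rows, leaving out dim genes, the replicate block, fitting only the groups compared and the variance model left every member's difference unchanged. Leaving out an array left the difference between the other groups unchanged. The sign changes were all in differences that had not been called: Atf4 with array medians set equal (-0.0158 in TSKM-3D and -0.11 in iPS cells, both against fibroblasts, and -0.0949 in iPS cells against TSKM-3D) and without TSKM-3D replicate 1 (its iPS difference from TSKM-3D was -0.0213 to 0.0578 over all arrays left out), Trib3 after quantile normalization (0.0532 for iPS against fibroblasts), and Ddit3 with fibroblast replicate 3 placed among the TSKM-3D arrays (-0.0510 for iPS against day 3). Setting array medians equal moved the median gene to -0.13 for iPS against day 3, where it was -0.01 as deposited, and to -0.12 for iPS against fibroblasts, where it was 0.05; the wider lists, with 7 higher and 11 lower for iPS against day 3, then had 5 higher and 15 lower. After quantile normalization 4, 1 and 5 members were called in the 3 comparisons, against 5, 0 and 6. Requiring the difference to exceed 2-fold by limma's treat left 3, 0 and 3 members, 1140, 1931 and 2973 genes in all (against 2159, 3001 and 4283), and 13, 9 and 23 wider-list genes (against 21, 18 and 32). With no fold requirement 8, 8 and 7 members, 8886, 9088 and 10883 genes and 92, 80 and 104 list genes passed. Here fewer or more calls follow from the rule itself. Placing fibroblast replicate 3 with the TSKM-3D arrays left 0 members, 0 genes and 0 list genes called in limma at day 3 against fibroblasts, with 8 members at an unadjusted p under 0.05, and 4 members for iPS against fibroblasts. Leaving out 1 array at a time gave 5 members, 0 to 1 and 5 to 6, over 2153 to 2222, 2948 to 3108 and 4265 to 4299 genes, and 18 to 21, 17 to 20 and 32 to 34 list genes. Replicate numbers are shared across groups but same-numbered arrays did not deviate together (correlations of -0.0979 to 0.0618). With the replicate block 5, 0 and 6 members were called, as without it. The differences cannot move under the block in this balanced design, and 0 genes of at least 2-fold missed the adjusted p with it either; genes past the adjusted p alone numbered 8769, 8968 and 10773, against 8886, 9088 and 10883. The table gives no background level, so dim readings, such as Slc7a3 at day 3, bound a change loosely. The values of Atf5 and Nupr1 were exactly equal on 2 of 3 TSKM-3D arrays, and their p-values may be too low.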
